A study of Mus musculus with 10 samples.

Results

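The genes described here carry glucose into brown fat and take it through glycolysis to pyruvate, to lactate or into the mitochondria. The 35 genes were chosen by name from their known place in the pathway, with earlier results of these data known: 2 glucose transporters, 15 glycolytic enzymes, 4 genes of lactate formation and transport, 8 genes of pyruvate entry and 6 genes that switch the pyruvate dehydrogenase complex on or off. All 35 have an identifier among the 41249 in the count tables, and 34 passed the filter of a mean above 1 CPM (counts scaled to a common library total), which 13739 genes passed. The remaining gene, *Aldoc*, the aldolase best known from brain, lay below it, between 0 and 1.03 CPM. RNA of whole interscapular brown adipose tissue (iBAT) was sequenced from 5 Axl KO and 5 wild-type (WT) male mice, which the study describes as littermates. The Axl KO mice lacked the receptor tyrosine kinase AXL in the whole body and from conception, through a gene-trap cassette inserted into *Axl* by way of a pair of embryonic stem cell clones, so every cell type of the animal carried it. Mice of both genotypes were kept at standard room temperature and received a high-fat diet (HFD) for 24 weeks from 6 to 8 weeks of age by the series record, so no group stands for mice on chow or in the cold. The comparison asks whether loss of the receptor goes with another level of these transcripts in iBAT after this diet.

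Glucose enters brown adipocytes mainly through GLUT4 (*Slc2a4*), which insulin brings to the cell surface, and to a lesser degree through GLUT1 (*Slc2a1*). Hexokinase traps it, phosphofructokinase commits it to glycolysis, and the resulting pyruvate is either reduced to lactate and exported by monocarboxylate transporters or carried into mitochondria by the MPC1/MPC2 carrier. There the pyruvate dehydrogenase complex turns it into acetyl-CoA, unless pyruvate dehydrogenase kinases (PDK) switch the complex off, and pyruvate carboxylase makes oxaloacetate from it. Brown fat is known for a high uptake of glucose when it is activated, while fatty acids feed most of its heat production, and several of the enzymes come as isoforms that skeletal muscle also uses.

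The tables held between 5431014 and 9580215 counts per mouse. *Axl* (ENSMUSG00000002602) was low in every mouse labelled Axl KO, with 2.01, 1.95, 1.75, 0.437 and 1.69 CPM in Axl KO mice 1 to 5 against 52.3, 38.2, 41.3, 38.5 and 45.2 CPM in WT mice 1 to 5. Its log2 fold change was -4.77 (SE 0.20, adjusted p = 1.1e-07 by edgeR's quasi-likelihood test). The brown adipocyte markers were present in every mouse, with a summed level of 10543 to 14225 CPM over 16 markers in Axl KO and of 8800 to 11129 CPM in WT mice. The summed level of 30 skeletal muscle markers spread 101-fold, from 118 CPM in Axl KO 2 and 166 CPM in Axl KO 1 to 11852 CPM in WT 3, and the other 8 mice lay between 1907 and 11852 CPM. Axl KO 1 and Axl KO 2 therefore stood apart, and 6 and 7 of the 30 markers were at 0 in them, while no marker was at 0 in any other mouse. Fold changes of 14 genes that muscle shares are given with and without these 2 mice. In bulk tissue, fewer cells of a type and less RNA per cell cannot be told apart.

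Across the pathway the difference between genotypes was small. No member passed an adjusted p of 0.05 in edgeR, and *Axl* was the single gene of 13739 that did (0.00728% of all tested). DESeq2, the other tool run, also called 0 members. The smallest adjusted p among the members was 0.571. The mean was higher in Axl KO for 21 members and lower for 13, and the median log2 fold change was 0.03, beside -0.00059 over all tested genes. For 27 of the 34 members the 95% interval of the log2 fold change lay within 0.5 of 0, and for 32 within 1. Of all 13739 tested genes, 8819 and 12611 had such intervals. The median absolute log2 fold change was 0.08 over the members and 0.10 over all tested genes. The difference was smaller than the SD between mice of one genotype for 28 members and larger for 6. The share of all tested genes for which it was smaller is not given here.

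At an unadjusted p under 0.05, edgeR set 4 of 34 members apart, all with the higher mean in Axl KO: *Pfkp*, *Slc16a1*, *Mpc2* and *Pdk3*. That is 11.8% of the members, against 4.54% of all tested genes that were higher in Axl KO at this level. No member was lower at this level, against 3.86% of all tested genes. In DESeq2 the count was also 4, with *Pfkm* in place of *Pdk3*. The genotypes did not overlap for 1 member, *Pfkp*, with all Axl KO values the higher, a separation that 0.735% of all tested genes showed. No member had all its Axl KO values below those of WT, as 0.619% of all tested genes did. The count of 4 rested in part on single mice, being 7 without Axl KO 3 and 2, *Pfkp* and *Slc16a1*, without WT 3. Over all tested genes 8.40% had an unadjusted p under 0.05 with 10 mice, 14.8% without Axl KO 3 and 7.39% without WT 3, so the higher count came with a higher share of all genes.

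Markers of cell types in the depot differed in both directions, and none passed an adjusted p of 0.05 in edgeR. At an unadjusted p under 0.05, 4.54% of all tested genes were higher in Axl KO and 3.86% lower. Of 16 brown adipocyte markers the mean was higher in Axl KO for 13 and lower for 3, and 6 were higher at an unadjusted p under 0.05, among them *Elovl3* (log2 fold change 1.67), *Dio2* (0.89) and *Ucp1* (0.43). The mean was lower in Axl KO for all 30 skeletal muscle markers (median log2 fold change -1.02), none of them at an unadjusted p under 0.05. It was also lower for all 10 fibroblast markers (median -0.32), with summed levels of 553 to 919 CPM in Axl KO and 773 to 1047 CPM in WT mice, and *Col1a1* (-0.43) and *Col1a2* (-0.40) reached an unadjusted p under 0.05. Of 12 endothelial markers 9 were lower on average (median -0.13), with summed levels of 682 to 839 CPM against 694 to 991 CPM, and *Cldn5* (-0.73) and *Egfl7* (-0.31) reached that level. Of 7 tested white adipocyte markers 6 had the lower mean in Axl KO, and none of the 7 reached an unadjusted p under 0.05. Summed levels over that list were 599 to 1574 CPM in Axl KO and 802 to 1519 CPM in WT mice. Of 15 macrophage markers 7 had the higher mean in Axl KO and 8 the lower (median -0.003), with summed levels of 162 to 297 CPM against 183 to 279 CPM. Among the macrophage markers *Trem2* (1.05) alone reached an unadjusted p under 0.05. Apart from the skeletal muscle markers, treated below, the part of cell composition in the differences of the members was not tested.

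**Figure D1:**
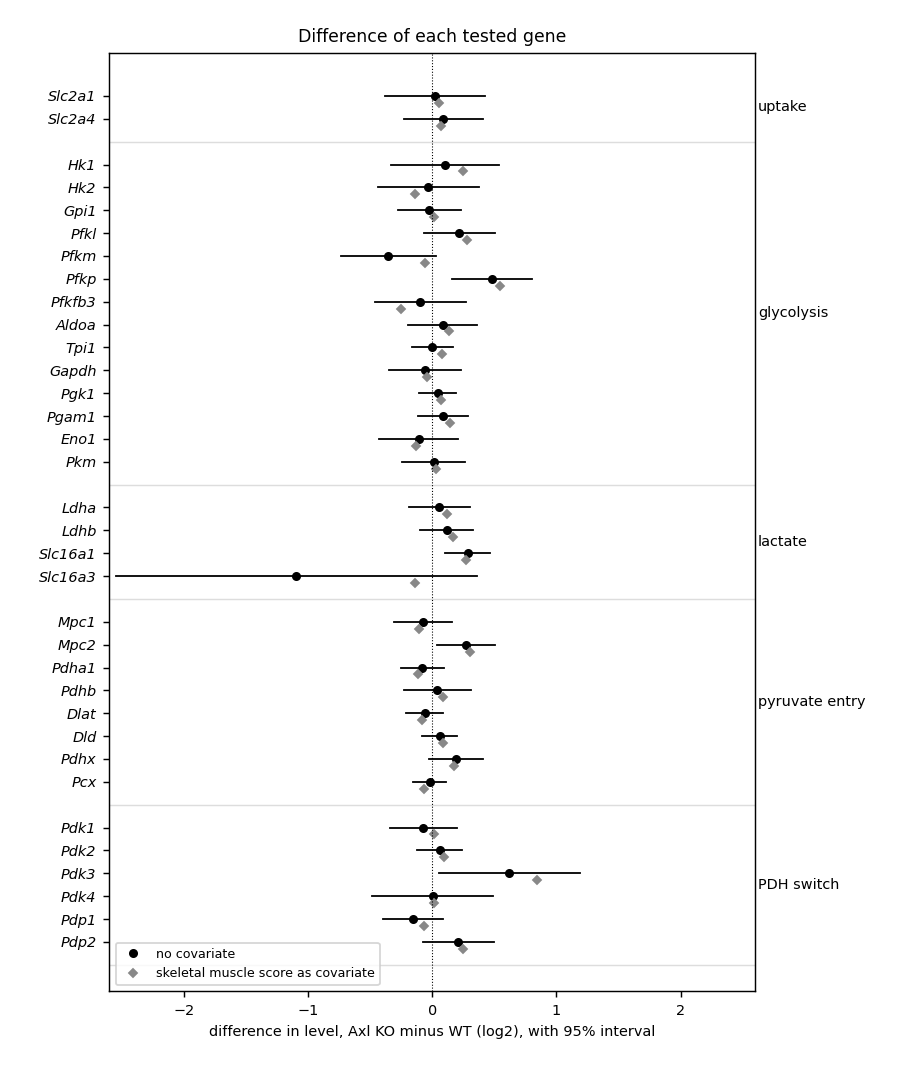
Log2 difference in level between Axl KO and WT (x axis) for each of the 34 tested genes, grouped by role, with the 95% interval as a line. Black dots are from the model without covariate, and grey diamonds from the model with the skeletal muscle score of each mouse as covariate; most intervals cross 0, and the diamonds of *Pfkm* and *Slc16a3* lie nearer to 0 than their dots.

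The glucose transporters differed between genotypes by less than the spread between mice. *Slc2a4*, the insulin-responsive transporter, measured 564, 377, 359, 436 and 488 CPM in Axl KO mice 1 to 5 and 511, 474, 332, 432 and 341 CPM in WT mice 1 to 5. The ranges overlapped almost in full, with Axl KO 1 highest and WT 3 lowest. It differed by 0.09 on the log2 scale (95% interval -0.23 to 0.41, adjusted p = 0.882, edgeR). *Slc2a1*, the transporter of basal uptake, lay near the filter at 3.86, 6.46, 4.55, 4.37 and 6.59 CPM in Axl KO and 4.10, 5.18, 5.32, 6.19 and 4.53 CPM in WT mice, and both genotypes held high and low mice. Its log2 fold change was 0.02 (95% interval -0.38 to 0.43). Per length of the main transcript, *Slc2a4* made up 98.7% to 99.5% of the pair in each of the 10 mice.

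Hexokinase was mainly *Hk2*, the isoform of insulin-responsive tissues, at 989, 675, 622, 654 and 738 CPM in Axl KO and 988, 971, 504, 714 and 582 CPM in WT mice. Axl KO 1, WT 1 and WT 2 formed the top and WT 3 and WT 5, both WT, the bottom, with the other mice between them. *Hk2* differed by -0.03 on the log2 scale (95% interval -0.44 to 0.38, adjusted p = 0.978, edgeR). *Hk1*, the broadly expressed isoform, ranged from 42.9 CPM in WT 3 to 97.1 CPM in Axl KO 5 and had a log2 fold change of 0.10 (95% interval -0.34 to 0.53). *Gpi1*, which turns glucose 6-phosphate into fructose 6-phosphate, differed by -0.02 on the log2 scale (95% interval -0.28 to 0.23).

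Phosphofructokinase, the committed step, held the largest log2 fold changes among the glycolytic enzymes, and those of its 3 isoforms were of both signs. *Pfkp*, the platelet isoform (ENSMUSG00000021196, GRCm38 chr13:6579768-6648777, minus strand), measured 213, 149.5, 153, 174 and 254 CPM in Axl KO mice 1 to 5. In WT mice 1 to 5 it measured 138, 142, 103, 149 and 144 CPM. All Axl KO mice lay above all WT mice, but the nearest pair, Axl KO 2 and WT 4, was separated by 149.5 against 149.4 CPM. Means were 189 ± 44.5 CPM in Axl KO and 135 ± 18.7 CPM in WT (SD, n = 5 mice each), a level 39.7% higher (log2 fold change 0.48, SE 0.15, 95% interval 0.16 to 0.80). The edgeR p was 0.00638 and the adjusted p 0.571. With any single mouse left out the log2 fold change stayed between 0.35 and 0.56, the lowest value being that without Axl KO 5. With the muscle score as covariate it was 0.54 (adjusted p = 0.703, edgeR). The 3′ part of *Pfkp* overlaps *Pitrm1*, a gene on the opposite strand, over 748 exonic bases, and the strand setting of the counting is not given in the sources used here, so reads in this stretch are uncertain. *Pitrm1* itself held 68.1% as many counts as *Pfkp* and had a log2 fold change of -0.06 (SE 0.055, adjusted p = 0.796, edgeR).

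*Pfkl*, the liver isoform, was the most abundant of the 3 and ranged from 687 CPM in WT 3 to 1402 CPM in Axl KO 5, with a log2 fold change of 0.22 (95% interval -0.07 to 0.50, adjusted p = 0.654, edgeR). *Pfkm*, the muscle isoform, measured 87.2, 98.1, 122, 112 and 167 CPM in Axl KO and 171, 116, 181, 165 and 115 CPM in WT mice. The lowest pair was Axl KO 1 and Axl KO 2, the mice with nearly no muscle markers, while Axl KO 5 lay among the highest WT mice. Its log2 fold change was -0.35 (95% interval -0.74 to 0.03, adjusted p = 0.602, edgeR), and -0.06 with the muscle score as covariate. Without Axl KO 1 and Axl KO 2 the log2 fold change of *Pfkm* was -0.17. With any single mouse left out it lay between -0.51 and -0.26, and the unadjusted p in edgeR between 0.00499 and 0.158. The value of -0.51 was that without Axl KO 5, the Axl KO mouse with the highest muscle marker sum (11287 CPM). Exons of *Pfkm* also overlap *Senp1* on the opposite strand and *Gm26513* on the same strand, so reads there are uncertain. *Senp1* and *Gm26513* held 18.8% and 1.2% as many counts as *Pfkm*. *Pfkfb3*, which makes the activator of phosphofructokinase, had a log2 fold change of -0.10 (95% interval -0.46 to 0.27) and its highest level, 439 CPM, in WT 2.

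The windows upstream of *Pfkp* and *Slc16a1* are shown because these genes had the lowest p-values of the members. They are the 250 bases before the RefSeq transcription start on GRCm38.p6, 5′ to 3′ on the strand of the gene, at chr13:6648772-6649021 (minus strand) and chr3:104638414-104638663 (plus strand). Capitals mark matches on either strand to 6 short motifs: the E-box CACGTG, the hypoxia response core GCGTG, the GC box GGGCGG, the CCAAT box, the cAMP response core TGACG and the letters TATAA.
Pfkp: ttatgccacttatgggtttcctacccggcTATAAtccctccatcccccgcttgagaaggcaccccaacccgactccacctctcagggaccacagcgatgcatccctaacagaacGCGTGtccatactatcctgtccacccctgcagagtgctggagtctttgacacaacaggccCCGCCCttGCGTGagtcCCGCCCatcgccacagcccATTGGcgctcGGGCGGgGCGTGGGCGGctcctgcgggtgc
Slc16a1: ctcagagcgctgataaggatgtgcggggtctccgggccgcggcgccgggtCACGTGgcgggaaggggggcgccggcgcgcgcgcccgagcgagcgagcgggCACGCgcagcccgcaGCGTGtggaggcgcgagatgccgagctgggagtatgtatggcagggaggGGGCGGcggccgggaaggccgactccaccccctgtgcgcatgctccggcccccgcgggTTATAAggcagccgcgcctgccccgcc
The *Pfkp* window held 4 GC boxes, 3 GCGTG cores, 1 CCAAT box and 1 TATAA, of which 1 GCGTG core and 1 GC box share a base. The *Slc16a1* window held 1 E-box, 2 GCGTG cores, 1 GC box and the letters TATAA on both strands at the same place, 22 to 27 bases before the start. RefSeq gave a window for 33 of the 35 members, and where a gene had several the first by position was used. An E-box was found in 6 of the 33, against 5.93% of all 27025 genes with a window, and GCGTG in 19 of the 33, against 28.0%. A GC box was found in 22 members (32.7% of all genes), CCAAT in 14 (34.2%), TGACG in 7 (17.6%) and TATAA in 4 (23.4%). The members' windows were richer in G and C than those of all genes, with a median of 62.8% against 52.0%, which bears on the shares of GC-rich motifs. These are matches of letters and not measured binding sites. The window of *Mpc2* is not printed, since it lies inside annotated exons.

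From aldolase to pyruvate kinase no gene reached an unadjusted p under 0.05. *Aldoa*, the main aldolase and the most abundant member per length at 2221 CPM per kb, ranged from 2456 CPM in WT 3 to 4264 CPM in Axl KO 5 (log2 fold change 0.08, 95% interval -0.20 to 0.36). *Aldoc* had 36 counts in all, at 0 to 0.601 CPM in Axl KO and 0.273 to 1.03 CPM in WT mice, and was not tested. *Tpi1*, *Pgk1* and *Pgam1* had log2 fold changes of 0.00, 0.04 and 0.09, and the widest of their 95% intervals, that of *Pgam1*, was -0.12 to 0.29. *Gapdh* and *Eno1* differed by -0.06 and -0.11 on the log2 scale. For *Gapdh*, 77 annotated genes share a stretch of at least 200 bases at 95% identity or more, of which 4 were in the tables and held 368 counts, 0.577% of those of *Gapdh*. *Pkm*, pyruvate kinase of muscle and most other tissues, measured 2308, 1942, 1777, 2210.4 and 2580.1 CPM in Axl KO and 2401, 2258, 1621, 2251 and 2201 CPM in WT mice. WT 3 lay far below the other WT mice, and the others of both genotypes overlapped. The log2 fold change of *Pkm* was 0.01 (95% interval -0.24 to 0.27, adjusted p = 0.991, edgeR). *Gm49759*, which shares exons with *Pkm* on the same strand, held 11.3% as many counts and had a log2 fold change of 0.01 (adjusted p = 0.988, edgeR).

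**Figure D2:**
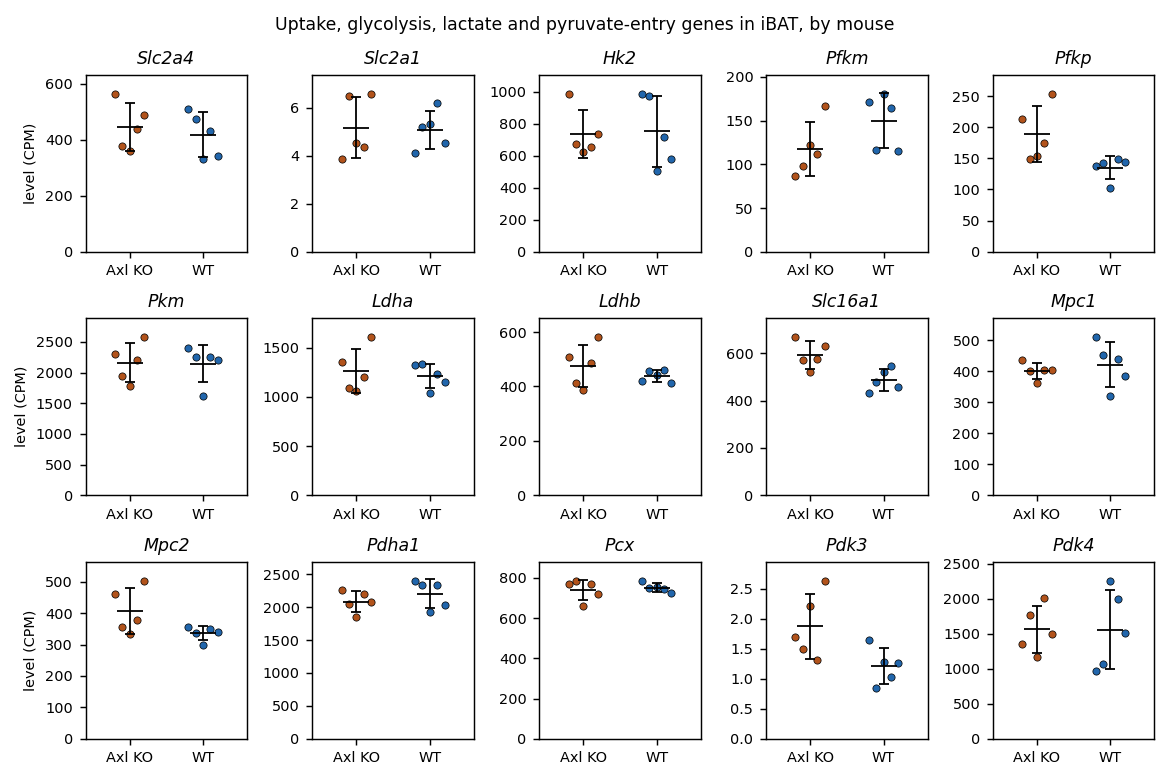
Level in CPM (y axis, from 0) of 15 genes in each Axl KO and WT mouse (dots), with the mean and SD as bars, n = 5 mice each. The Axl KO dots lie above the WT dots for *Pfkp*, mostly above for *Slc16a1*, *Mpc2* and *Pdk3*, and overlap with them for the other genes.

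On the lactate side, the transporter *Slc16a1* had a larger log2 fold change than the enzymes. *Ldha*, the subunit that favours lactate formation, measured 1353, 1090.1, 1064, 1203 and 1610.0 CPM in Axl KO and 1328, 1332, 1037, 1229 and 1149 CPM in WT mice. Axl KO 5 was the highest and WT 3 the lowest, and the rest of both genotypes overlapped (log2 fold change 0.06, 95% interval -0.19 to 0.30). *Ldhb*, the subunit that favours pyruvate formation, measured 509, 414, 389, 485 and 582 CPM in Axl KO and 419, 458, 441, 461 and 413 CPM in WT mice. The WT mice lay close together, between the extremes of the Axl KO mice (log2 fold change 0.12, 95% interval -0.10 to 0.33). *Slc16a1*, which encodes the lactate and pyruvate transporter MCT1 (ENSMUSG00000032902, chr3:104638668-104658462, plus strand), measured 669, 570.2, 519.8, 577 and 633 CPM in Axl KO mice 1 to 5. In WT mice 1 to 5 it measured 434, 480.1, 520.0, 545 and 458 CPM. Only the lowest Axl KO mouse, Axl KO 3, reached into the WT range. Means were 594 ± 58.1 CPM in Axl KO and 487 ± 45.2 CPM in WT (SD, n = 5 mice each), a level 21.8% higher (log2 fold change 0.28, SE 0.084, 95% interval 0.10 to 0.47). The edgeR p was 0.00488 and the adjusted p 0.571. The log2 fold change lay between 0.24 and 0.33 when any one mouse was left out, and was 0.27 with the muscle score as covariate.

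*Slc16a3*, which encodes MCT4, the lactate exporter of glycolytic muscle fibres, lay between 0.15 and 2.77 CPM, with 93 counts in all 10 mice. The 3 mice at about 0.15 CPM were Axl KO 1, 2 and 4, which were also the 3 lowest in the skeletal muscle sum. Its log2 fold change was -1.09 (95% interval -2.55 to 0.36, adjusted p = 0.662, edgeR) and -0.14 with the muscle score as covariate. Beside the members, *Bsg*, the chaperone that takes MCT1 and MCT4 to the membrane, measured 522, 399, 342, 455 and 851 CPM in Axl KO and 299.5, 330.1, 306, 387 and 349 CPM in WT mice. Axl KO 5 was far above the rest, and Axl KO 3 lay within the WT range. The log2 fold change of *Bsg* was 0.62 (SE 0.20, unadjusted p of 0.00878, adjusted p = 0.571, edgeR) and 0.36 without Axl KO 5. *Slc16a7*, which encodes the high-affinity transporter MCT2, had the lower mean in Axl KO, with a log2 fold change of -0.54 (SE 0.21, unadjusted p of 0.0241, adjusted p = 0.571, edgeR) and levels of 24.8 to 70.0 CPM against 51.0 to 80.0 CPM.

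The subunits of the mitochondrial pyruvate carrier had log2 fold changes of opposite sign, but their ratio did not pass 0.05 after adjustment (exact permutation test over mice, adjusted p = 0.0635). *Mpc2* (ENSMUSG00000026568, chr1:165460637-165481214, plus strand) measured 460.1, 354, 335, 377 and 504 CPM in Axl KO and 357, 338, 297, 349 and 339.8 CPM in WT mice. Axl KO 1, 4 and 5 lay above all WT mice, while Axl KO 2 and 3 lay within the WT range. Its level was 20.8% higher in Axl KO (log2 fold change 0.27, SE 0.11, 95% interval 0.04 to 0.51, unadjusted p of 0.0262, adjusted p = 0.571, edgeR), and the unadjusted p was above 0.05 without Axl KO 1, Axl KO 5 or WT 3, at 0.0689, 0.0745 and 0.0659. *Mpc1* measured 436, 399, 362, 403 and 403 CPM in Axl KO and 510.2, 453, 321, 439 and 384 CPM in WT mice. The Axl KO mice were close together and inside the wider WT range. The log2 fold change of *Mpc1* was -0.07 (95% interval -0.30 to 0.16, adjusted p = 0.868, edgeR).

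Subunits of the pyruvate dehydrogenase complex differed by 0.19 or less on the log2 scale. *Pdha1*, which encodes the catalytic E1 alpha subunit that the kinases phosphorylate, measured 2261, 2042, 1857, 2201 and 2073 CPM in Axl KO and 2405, 2332, 1922, 2344 and 2039 CPM in WT mice. WT 3 and Axl KO 3 were lowest, and the ranges overlapped (log2 fold change -0.08, 95% interval -0.25 to 0.09). *Pdhb* (E1 beta), *Dlat* (E2) and *Dld* (E3) had log2 fold changes of 0.04, -0.06 and 0.06, and *Pdhx*, the subunit that binds E3 to the core, one of 0.19 (95% interval -0.02 to 0.41, adjusted p = 0.616, edgeR). *Pcx*, pyruvate carboxylase, measured 769, 784, 663, 768 and 719 CPM in Axl KO and 787, 748, 755, 744 and 723 CPM in WT mice. It was the steadiest member, with an SD of 0.077 on the log2 scale between mice of one genotype. Its log2 fold change was -0.02 (95% interval -0.15 to 0.11).

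Among the kinases and phosphatases that set the activity of the complex, *Pdk4*, the kinase that fasting and fatty acids are known to induce, was the most abundant, and among the most variable members. It measured 1349, 1771, 1170.2, 2015 and 1501 CPM in Axl KO and 969.7, 1069, 2257, 1987 and 1507 CPM in WT mice. WT 3 was the highest of all and WT 1 the lowest of all, so that the Axl KO mice lay inside the WT range. The log2 fold change of *Pdk4* was 0.00 (95% interval -0.48 to 0.49, adjusted p = 0.999, edgeR). *Pdk3* (ENSMUSG00000035232, chrX:93764607-93832201, minus strand) is a kinase of low level in most tissues, and rested on 110 counts in all 10 mice. It measured 1.70, 1.50, 2.21, 1.31 and 2.63 CPM in Axl KO and 1.64, 0.846, 1.27, 1.03 and 1.26 CPM in WT mice. Axl KO 1, 3 and 5 lay above all WT mice and the others within the WT range. Its log2 fold change was 0.62 (SE 0.26, 95% interval 0.05 to 1.19, unadjusted p of 0.0344, adjusted p = 0.571, edgeR), and with DESeq2 the unadjusted p was 0.0873. *Pdk1* and *Pdk2* differed by -0.07 and 0.06, and the phosphatases *Pdp1* and *Pdp2*, which switch the complex on again, by -0.16 and 0.21 on the log2 scale, with intervals that included 0.

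**Figure D3:**
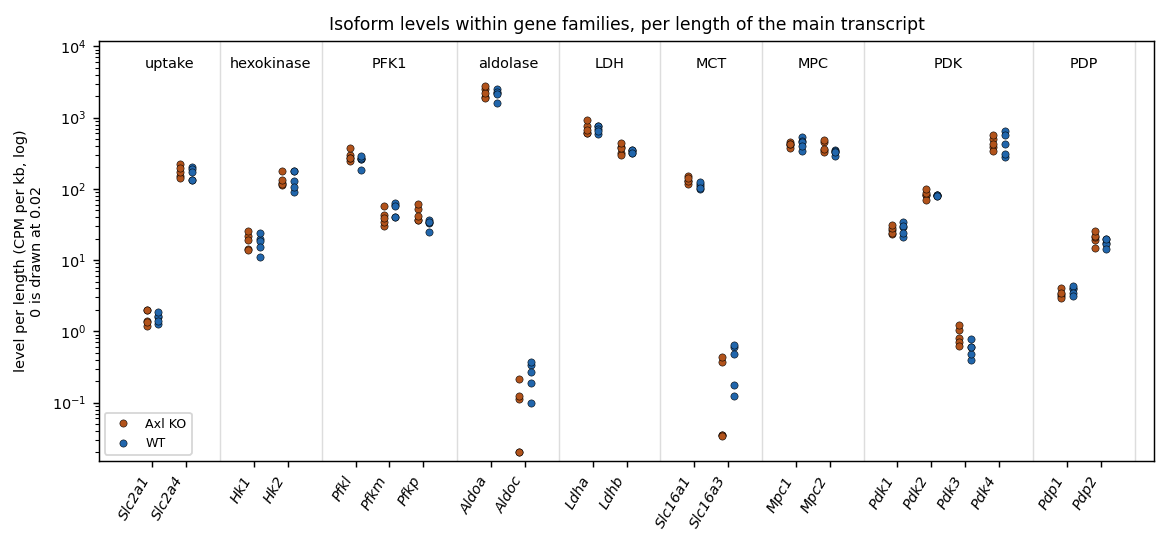
Level per length (y axis, CPM per kb of the main transcript, log axis) of the isoforms within 9 gene families in each Axl KO and WT mouse (dots). In each family but the MPC pair, the leading gene lies above the others in every mouse, and the genotypes overlap for most genes.

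Levels per length gave the order of the isoforms, and the order of the first place was shared by all mice in most families. *Hk2* made up 81.4% to 92.4% of the hexokinase transcripts (*Hk1*, *Hk2* and *Hk3*) and *Pfkl* 67.8% to 79.4% of phosphofructokinase. *Ldha* made up 63.4% to 70.0% of the lactate dehydrogenase pair and *Slc16a1* 93.7% to 98.2% of the 3 monocarboxylate transporters *Slc16a1*, *Slc16a3* and *Slc16a7*. *Pdk4* made up 70.9% to 86.2% of the 4 kinases, and *Pdp2* 78.3% to 88.1% of the phosphatases. *Mpc1* and *Mpc2* were near parity, with *Mpc1* between 46.1% and 60.5% of the pair, so their order was not the same in all mice. Among the less abundant isoforms, *Pfkm* and *Pfkp* changed places between mice, at 7.90% to 23.1% and 9.10% to 13.4% of phosphofructokinase.

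Ratios of isoforms within a mouse do not depend on library size, and 9 were fixed, of which 8 could be tested with two-sided exact permutation tests over 5 against 5 mice, for which 0.00794 is the smallest possible p. The ninth, *Aldoc* to *Aldoa*, was undefined in the 2 Axl KO mice with no *Aldoc* count. The log2 ratio of *Pfkp* to *Pfkl* was -2.40, -2.61, -2.73, -2.53 and -2.46 in Axl KO mice 1 to 5 and -2.80, -2.78, -2.74, -2.74 and -2.90 in WT mice 1 to 5. All Axl KO mice lay above all WT mice, though Axl KO 3 and WT 4 were nearly level. The difference of the means was 0.25 (exact permutation p = 0.00794, 0.0635 after Benjamini-Hochberg adjustment over the 8 ratios). The log2 ratio of *Mpc1* to *Mpc2* was -0.08, 0.17, 0.11, 0.10 and -0.32 in Axl KO and 0.52, 0.42, 0.11, 0.33 and 0.18 in WT mice. The mice overlapped between 0.11 and 0.17, and Axl KO 5 was the lowest. The difference was -0.32 (exact permutation p = 0.0159, adjusted p = 0.0635), so neither ratio passed 0.05 after adjustment. For *Pfkm* to *Pfkl* the difference was -0.58 (exact permutation p = 0.0794, adjusted p = 0.175) and for *Slc16a1* to *Slc16a3* it was 2.12 (exact permutation p = 0.0873, adjusted p = 0.175). The latter ratio rested on 1 *Slc16a3* count in each of Axl KO 1, 2 and 4. The other 4 ratios had exact permutation p-values of 0.468 or more.

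**Figure D4:**
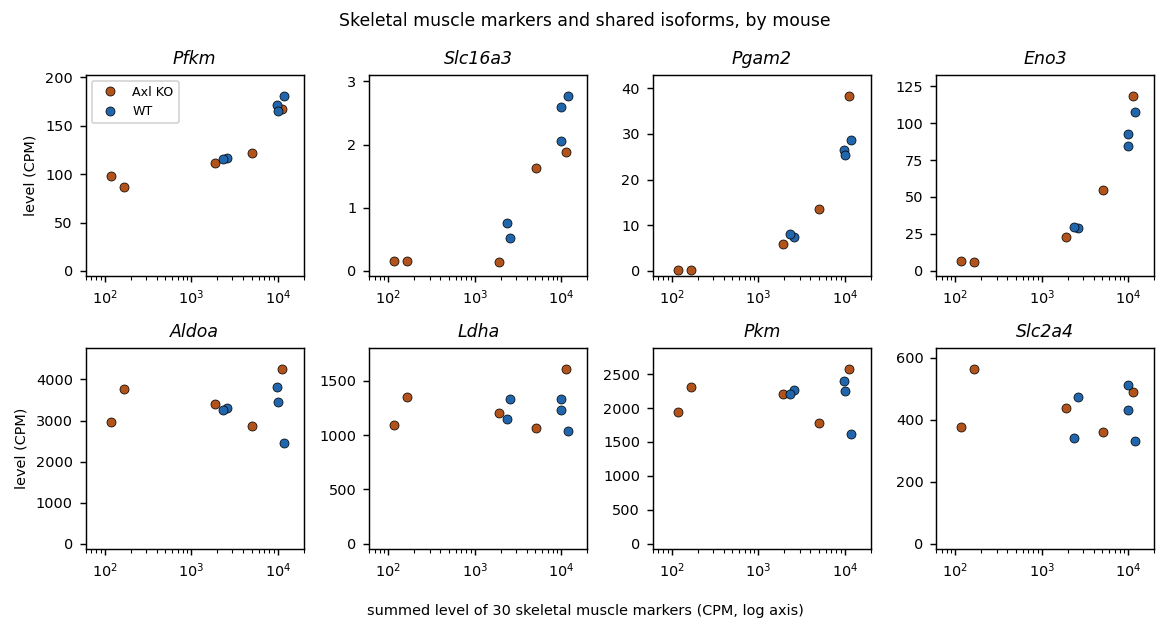
Level in CPM (y axes) of 6 members and of the muscle isoforms *Pgam2* and *Eno3* against the summed level of 30 skeletal muscle markers (x axis, log) in each Axl KO and WT mouse (dots). *Pfkm*, *Slc16a3*, *Pgam2* and *Eno3* are higher in mice with more muscle markers, and *Aldoa*, *Ldha*, *Pkm* and *Slc2a4* show no such order.

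Isoforms that skeletal muscle shares were set against the muscle markers over the 8 mice other than Axl KO 1 and Axl KO 2, since these formed a cluster of their own, and no correlation was taken over all 10. Mice of both genotypes were permuted together, so the p-values of these correlations do not separate genotype from muscle markers. Of 14 genes examined, 5 followed the mean log2 level of the markers: *Pfkm*, *Slc16a3* and, as muscle isoforms outside the members, *Pgam2* (phosphoglycerate mutase), *Eno3* (enolase) and *Pygm* (glycogen phosphorylase). For *Pfkm*, Pearson's r was 0.96 and Spearman's rho 0.93 (exact permutation p = 0.0006 and 0.0022, 0.0021 and 0.0104 after adjustment over the 14 genes, n = 8). Without the 2 mice farthest from the median, r was 0.96. For *Slc16a3*, r was 0.92 and rho 0.83 (exact permutation p = 0.0010 and 0.0154, adjusted p = 0.0027 and 0.0431, n = 8), and r was 0.91 without the 2 farthest mice. For *Pgam2*, *Eno3* and *Pygm*, r was 0.99. For the other 9 (*Slc2a4*, *Hk2*, *Aldoa*, *Gapdh*, *Pgam1*, *Eno1*, *Pkm*, *Ldha* and *Pdk4*), r lay between -0.34 and 0.22, and no adjusted exact permutation p was under 0.05. Without Axl KO 1 and Axl KO 2 the log2 fold change between genotypes was -0.17 for *Pfkm* (-0.35 with all mice) and -0.50 for *Slc16a3* (-1.09). It was -0.03 for *Pgam2* (-0.76), -0.08 for *Eno3* (-0.73) and -0.38 for *Pygm* (-1.08), and for the other 9 it lay between -0.16 (*Hk2*) and 0.17 (*Pgam1*), beside -0.11 to 0.09 with all mice. *Pfkm* was still at 87.2 and 98.1 CPM in Axl KO 1 and Axl KO 2, where *Pgam2* was at 0.309 and 0.150 CPM and *Eno3* at 6.33 and 6.91 CPM.

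**Figure D5:**
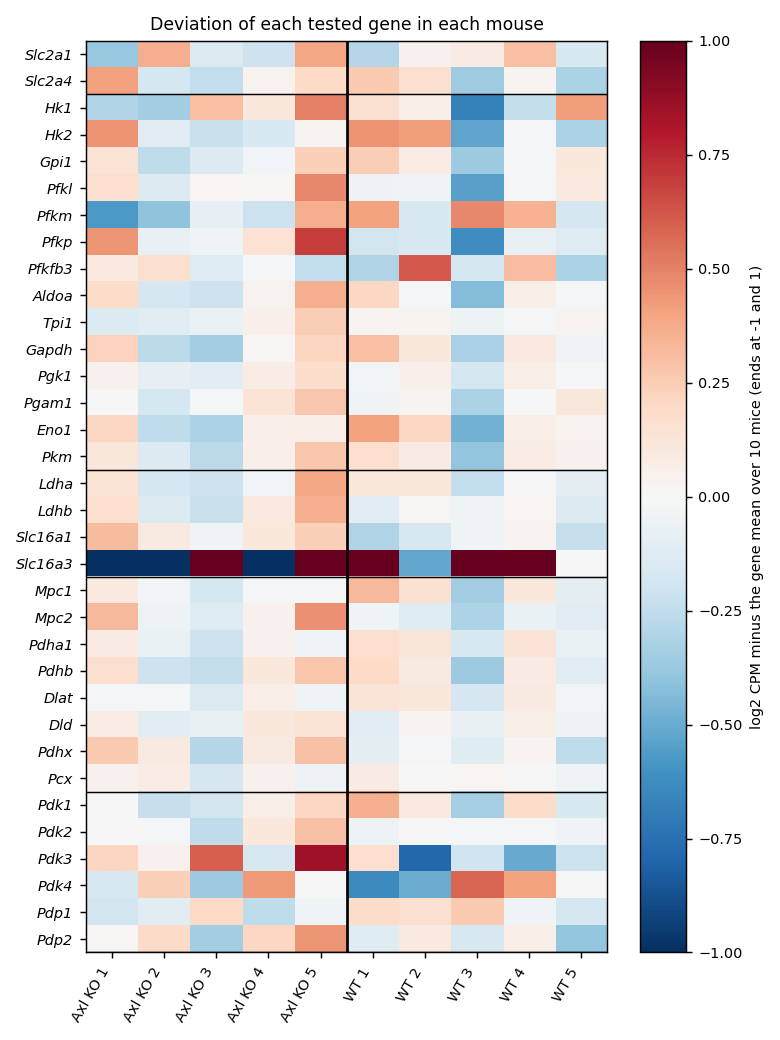
Deviation of each of the 34 tested genes (rows, by role) in each mouse (columns) from the mean log2 CPM of that gene over 10 mice, with red above and blue below, and the colour scale ending at -1 and 1. The column of WT 3 is blue and that of Axl KO 5 red for most glycolytic genes.

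Much of the spread of the glycolytic genes lay between mice of one genotype. WT 3 was the lowest of the 10 mice for 17 of the 34 members and for 10 of the 14 tested glycolytic enzymes, and its median deviation over these enzymes was -0.38 on the log2 scale. Axl KO 5 was the highest for 18 members and 8 glycolytic enzymes, with a median deviation of 0.26. The share of all tested genes for which WT 3 was lowest or Axl KO 5 highest is not given here. Whether these extremes were particular to the members was not tested. WT 3 and Axl KO 5 were also the mice with the lowest and the highest summed level of brown adipocyte markers, 8800 and 14225 CPM. The other mice did not keep this order. WT 1, at 9240 CPM, had a median deviation of 0.16 over the glycolytic enzymes, and Axl KO 2, at 11333 CPM, one of -0.15. Axl KO 5 had the smallest total count. WT 3 was the highest for *Pfkm*, *Slc16a3*, *Pdk4* and *Pdp1*, and it had the highest muscle marker sum. Apart from the relation of 14 genes to the skeletal muscle markers, the part of cell composition in these mouse-to-mouse differences was not tested. The most variable members were *Slc16a3*, *Pdk4* and *Hk1*, with an SD between mice of one genotype of 1.58, 0.44 and 0.40 on the log2 scale, and the least variable *Pcx*, *Dld* and *Dlat*, with 0.08, 0.09 and 0.10. *Slc16a3* had 1 count in each of Axl KO 1, 2 and 4, so its SD is imprecise.

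Neighbouring parts of glucose metabolism were examined through lists of genes named by function. Of 20 tested other glycolytic isoforms and partners, *Bsg* and *Slc16a7*, described above, had an unadjusted p under 0.05, beside 8.40% of all tested genes in either direction. Of 26 tested glycogen genes, 1 did: *Pygb*, the glycogen phosphorylase best known from brain, with a log2 fold change of -0.34 (SE 0.13, unadjusted p of 0.0218, adjusted p = 0.571, edgeR). It measured 104, 150.1, 165, 129 and 95.8 CPM in Axl KO and 158, 173, 163, 148 and 174 CPM in WT mice, and Axl KO 2 and 3 lay within the WT range. None of 12 pentose phosphate genes and none of 20 genes of gluconeogenesis and the shuttles had an unadjusted p under 0.05, nor an adjusted one, in edgeR.

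Of 32 tested regulators of glucose uptake and glycolysis, 4 had an unadjusted p under 0.05, all with the higher mean in Axl KO, which is 12.5% of the list against 4.54% of all tested genes. The list as a whole did not lean that way, with 15 genes higher and 17 lower in mean. *Mlx*, the partner of the carbohydrate response factor ChREBP, measured 43.5, 40.0, 38.9, 36.5 and 43.1 CPM in Axl KO and 34.3, 36.4, 31.0, 34.6 and 33.0 CPM in WT mice. The genotypes did not overlap, though the nearest pair, Axl KO 4 and WT 2, was at 36.5 and 36.4 CPM, a separation with Axl KO above that 0.735% of all tested genes showed (log2 fold change 0.25, SE 0.067, unadjusted p of 0.00237, adjusted p = 0.571, edgeR). *Vhl*, part of the ubiquitin ligase that removes hypoxia-inducible factors, *Tbc1d4*, which restrains GLUT4 vesicles until insulin acts, and *Prkaa1*, a catalytic subunit of AMP-activated kinase, had log2 fold changes of 0.32, 0.25 and 0.18 (unadjusted p of 0.0188, 0.0341 and 0.0398, edgeR), with overlapping genotypes. No gene of the 5 lists had an adjusted p under 0.05 in edgeR, and the medians of the lists lay between -0.06 and 0.07 on the log2 scale.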

How the data were processed

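RNA of whole iBAT from 5 Axl KO and 5 WT mice was sequenced. The labels name polyA RNA, whereas the paper's methods describe rRNA depletion. The submitters' processing notes name bcl2fastq, Trimmomatic 0.36, STAR 2.6.1c, the genome build GRCm38.p5 and DESeq2, whereas the paper names Trim Galore and hisat2. The diet is given as in the series record, and the paper's text has it slightly longer and from a somewhat later age. The authors deposited 1 table of raw counts per mouse, with the number of reads on each Ensembl gene, not normalized and not pooled. The counting tool, its strand setting, how it treated reads of more than 1 gene, and the release of Ensembl, are not given in the sources used here. Total counts ranged from 5431014 to 9580215 per mouse.

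The sample titles gave each mouse its genotype and number. Identifiers were matched to GENCODE M21, which held 41163 of the 41249. *Aldoa* has 2 identifiers there, and ENSMUSG00000030695 was used. Between any pair of mice the counts differed beyond sampling noise (lowest chi-square per gene 5.03). Each mouse was 1 replicate, and the p-values of genotype comparisons set the difference against the spread between mice.

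The quasi-likelihood test of edgeR 4.0.16 in R 4.3.3 compared the genotypes after TMM normalization, without covariates. It ran on the 13739 genes whose mean exceeded 1 CPM, with Benjamini-Hochberg adjustment over all of them and a threshold of 0.05. CPM are TMM-normalized, and levels per length divide CPM by the length of the principal transcript. Single ratios were tested by exact permutation of the mice, two-sided, in scipy 1.17.1. The relation to muscle markers used log2(CPM + 0.1) of the gene and the mean log2 CPM of 30 markers, and was planned over 10 mice but run over 8, since 2 mice formed a separate cluster. Near-identical copies were searched with BLAST 2.17.0+. The edgeR and DESeq2 comparisons were tested on simulated counts. Upstream windows are RefSeq's.

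The members and lists were chosen with earlier results of these data known. Values of every mouse are given for members with an unadjusted p under 0.05 or no overlap, and for *Slc2a4*, *Slc2a1*, *Hk2*, *Pfkm*, *Pkm*, *Ldha*, *Ldhb*, *Mpc1*, *Mpc2*, *Pdha1*, *Pdk4* and *Pcx*. Other members are given by role, and genes of the pathway lists where the unadjusted p was under 0.05. Alternatives were DESeq2 1.42.0, RLE size factors, other filters, protein-coding genes alone, a skeletal muscle covariate, a replicate block, each mouse left out and, added after seeing the data, the 2 mice lowest in muscle markers left out. The Dixon criterion was applied to the 5 mice of a genotype.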

Additional observations from a re-analysis of the deposited data

Results flagged for a closer look

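In 4 of 46 groups of 5 mice examined (15 members and 8 isoform ratios in each genotype), 1 mouse lay far from the other 4, its gap to the nearest being more than 0.71 of the whole range. Chance alone gives about 1 in 20, or 2.3 of 46. *Pfkp* was 102.6 CPM in WT 3, against 138 CPM in the next WT mouse, and *Pkm* was 1621 CPM in WT 3, against 2201 CPM. The log2 ratio of *Hk1* to *Hk2* was -2.67 in WT 5, against -3.55 in the nearest WT mouse. The log2 ratio of *Pfkm* to *Pfkl* was -3.69 in Axl KO 1, against -3.22 in the nearest Axl KO mouse, and Axl KO 1 was one of the 2 mice with nearly no skeletal muscle markers.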

How the results depend on the processing

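No member passed an adjusted p of 0.05 under any alternative run. The number of genes called was 1 in every edgeR setting and 9 with DESeq2. The members at an unadjusted p under 0.05 numbered between 2 and 7 with each mouse left out in turn, and between 4 and 6 in the other alternatives. The share of all tested genes at that level ran from 5.94% to 14.8% with each mouse left out and from 5.90% to 8.63% in the other alternatives. *Pfkp* and *Slc16a1* kept an unadjusted p under 0.05 in all of them. For 17 of the 34 members the sign held under every alternative. For the other 17 it turned with a single mouse left out, and their log2 fold changes then ranged as follows: *Slc2a1* -0.075 to 0.11, *Slc2a4* -0.010 to 0.17, *Hk1* -0.030 to 0.23, *Hk2* -0.16 to 0.086, *Gpi1* -0.11 to 0.040, *Pfkfb3* -0.18 to 0.077, *Aldoa* -0.0056 to 0.15, *Tpi1* -0.069 to 0.035, *Gapdh* -0.13 to 0.018, *Pkm* -0.075 to 0.074, *Ldha* -0.047 to 0.11, *Mpc1* -0.16 to 0.0052, *Pdhb* -0.036 to 0.10, *Pcx* -0.042 to 0.016, *Pdk1* -0.16 to 0.015, *Pdk2* -0.012 to 0.12 and *Pdk4* -0.13 to 0.18. With the muscle score as covariate the sign turned for *Gpi1* (0.017), *Pdk1* (0.011), *Pgam2* (0.17) and *Eno3* (0.18), for *Gpi1* also without the 2 mice lowest in muscle markers (0.0099), and for *Tpi1* with protein-coding genes alone (-0.00023) and with the replicate block (-0.0059). The cause was not tested.

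Mice with the same replicate number mostly did not deviate together (r from -0.36 to 0.37 over the 5 numbers). For number 2 alone, at 0.37, the Axl KO mouse was most like the WT mouse of its own number. The mice were treated as unpaired, though 5 correlations cannot exclude a pairing. With the number as a block, 1 gene and 0 members were called and 4 members had an unadjusted p under 0.05. A sign-flip test of the isoform ratios within numbers left 0 of the 2 ratios at an unadjusted p under 0.05, since 5 pairs cannot reach it. At these total counts *Slc16a3*, *Pdk3* and *Aldoc* rested on 93, 110 and 36 counts in all mice, which limits their precision.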
